A study of Mus musculus with 22 samples.

Results

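The genes described here are the solute carrier genes to which peaks of the repressive histone mark H3K27me3 were assigned in the mouse retina shortly before birth. They were taken as the genes of the deposited peak annotation whose symbol is Slc followed by a number, leaving out the X chromosome and Slc22a18. They numbered 180 of the 12370 genes with a peak, in 45 numbered families, and 272 of the 19034 peaks were assigned to them. Of these genes 128 had 1 peak and 52 had more, up to 9 at Slc35f3. By biotype 177 were protein-coding, and the other 3 were the antisense transcripts Slc13a2os and Slc36a1os and the pseudogene Slc39a1-ps. Slc9a3r1 and Slc9a3r2, which carry the symbol but encode scaffold proteins and not carriers, were kept because the rule takes symbols.

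The study compared Jarid2 conditional knockout (cKO) retinas with controls by CUT&RUN, in which a nuclease guided by an antibody cuts out DNA beside the marked nucleosomes. The mice were C57BL/6 and were collected at embryonic day 18.5, after pregnant females had received tamoxifen at 75 µg/g at E10.5, so the controls were exposed to tamoxifen as well. The 5 cKO animals were Jarid2 fl/fl; Rx-cre, where the Rx (Rax) promoter drives Cre in retinal progenitors, so that any retinal cell outside that lineage, or that escaped recombination, keeps its Jarid2. By the sample labels control replicates 2, 4 and 5 were Jarid2 fl/+, control replicate 3 was Jarid2 fl/fl, and control replicate 1 was Jarid2 fl/+; Rx-cre and so also carried Cre, whereas the protocol text gives the controls as fl/fl. Batch 1 was a single litter with 2 animals per genotype, a male and a female in each. Batch 2 held 3 animals per genotype, all male, each with 2 technical duplicates that were summed. Both retinas of an animal were pooled.

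Solute carriers move ions, sugars, amino acids, transmitters, metals and metabolites across membranes, driven by gradients of sodium, protons or other solutes and not by ATP. In the retina they load glutamate, GABA, glycine and dopamine into vesicles, clear these transmitters from synapses, supply photoreceptors with fuel and set the chloride and calcium balance of neurons. Polycomb repressive complex 2 (PRC2) places H3K27me3 on nucleosomes of silent genes, most often around CG-rich start sites, and Jarid2 is an accessory subunit that helps it engage chromatin. A carrier with H3K27me3 is therefore usually one that most cells of the tissue keep silent, although the mark itself is no measure of RNA.

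The upstream sequences of 6 start sites show what kind of DNA the marked carriers have. The first 3 belong to genes whose start-site peak had less H3K27me3 in cKO retinas, and the other 3 to the genes with most H3K27me3 reads in controls, where no change was called. Each is the 250 bases before a RefSeq start site (GRCm38.p6, the assembly that mm10 represents), written 5′ to 3′ with every CG dinucleotide in capitals, a motif that reads the same on both strands.
Slc38a11: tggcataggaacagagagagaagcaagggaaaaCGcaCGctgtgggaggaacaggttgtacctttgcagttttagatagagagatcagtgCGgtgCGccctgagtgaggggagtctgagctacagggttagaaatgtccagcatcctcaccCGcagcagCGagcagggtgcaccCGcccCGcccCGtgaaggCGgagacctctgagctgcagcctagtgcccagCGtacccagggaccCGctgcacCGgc
Slc25a21: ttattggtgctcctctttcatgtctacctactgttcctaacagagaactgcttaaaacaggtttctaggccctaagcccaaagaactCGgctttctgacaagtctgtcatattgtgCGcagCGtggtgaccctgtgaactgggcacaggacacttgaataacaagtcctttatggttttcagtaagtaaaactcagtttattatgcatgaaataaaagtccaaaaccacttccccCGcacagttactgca
Slc18a2: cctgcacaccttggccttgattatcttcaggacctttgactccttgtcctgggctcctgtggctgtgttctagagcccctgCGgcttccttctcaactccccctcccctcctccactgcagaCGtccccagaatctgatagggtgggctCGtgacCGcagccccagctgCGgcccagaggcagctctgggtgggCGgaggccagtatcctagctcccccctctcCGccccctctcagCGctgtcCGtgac
Slc32a1: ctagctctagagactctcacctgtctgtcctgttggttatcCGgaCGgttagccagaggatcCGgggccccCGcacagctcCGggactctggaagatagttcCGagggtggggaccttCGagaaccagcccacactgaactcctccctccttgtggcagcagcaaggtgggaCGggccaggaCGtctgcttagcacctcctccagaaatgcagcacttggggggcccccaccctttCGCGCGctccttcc
Slc17a6: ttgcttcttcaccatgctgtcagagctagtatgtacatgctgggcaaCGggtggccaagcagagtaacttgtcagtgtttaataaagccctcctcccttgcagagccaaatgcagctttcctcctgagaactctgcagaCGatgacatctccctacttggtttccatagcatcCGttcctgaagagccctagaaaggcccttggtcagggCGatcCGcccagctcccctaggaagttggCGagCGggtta
Slc6a5: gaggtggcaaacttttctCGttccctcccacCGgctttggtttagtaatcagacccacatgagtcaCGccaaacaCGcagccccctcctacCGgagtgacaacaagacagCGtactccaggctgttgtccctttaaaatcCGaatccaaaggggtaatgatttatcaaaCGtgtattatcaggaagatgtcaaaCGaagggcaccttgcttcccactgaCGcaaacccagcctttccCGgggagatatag
They lie at chr2:65364027-65364276 (- strand), chr12:57197473-57197722 (- strand), chr19:59260628-59260877 (+ strand), chr2:158610508-158610757 (+ strand), chr7:51621580-51621829 (+ strand) and chr7:49910049-49910298 (+ strand). Their CG dinucleotides numbered 13 at Slc38a11, 4 at Slc25a21 and 9 at Slc18a2, against 12 at Slc32a1, 7 at Slc17a6 and 11 at Slc6a5, so the counts of both sets overlapped. Against the number expected from base content, the CG count was a ratio of 0.569, 0.349 and 0.37 in the first set and of 0.497, 0.398 and 0.707 in the second. The 81 carriers with a start site inside a peak had a median of 12 CG dinucleotides and 60.8% G or C in this window, and the 204 carriers with a start site outside any peak had 10 and 56.0%. Over all coding genes with a sequence the medians were 12 and 60.4% for 2559 start sites inside a peak and 9 and 54.4% for 14116 outside. At least 1 CG was present in 100% of the 81 windows, in 98.2% of those of all coding genes with a start site inside a peak and in 92.8% of those of all coding genes. The ratio was over 0.6, a common mark of CG-rich starts, in 43.2% of the 81 windows, against 46.8% of all coding genes with a start site inside a peak.

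A peak was assigned to a larger share of the solute carriers than of coding genes at large, given here as shares with no test. Of 361 protein-coding carriers in RefSeq, 176 (48.8%) had a peak assigned to them, against 35.1% of 20934 coding genes. The share differed by what the proteins carry: 76.2% of 21 cation and proton carriers, 75.9% of 29 carriers of monocarboxylates, vitamins and nucleosides and 60.6% of 33 transmitter carriers had a peak, against 36.5% of 74 mitochondrial and other intracellular carriers and 29.4% of 34 metal carriers. All 5 potassium-dependent sodium-calcium exchangers of the Slc24 family had one, as did 14 of 19 genes of the Slc6 transmitter and amino acid family and 10 of 13 of the Slc16 monocarboxylate family, but only 14 of 43 genes of the Slc25 family of the mitochondrial inner membrane. Of 30 transporters listed for their known use in retina or neurons, 20 had a peak. The 10 with no peak were Slc1a3, Slc1a4, Slc1a7, Slc2a1, Slc4a3, Slc6a9, Slc16a8, Slc17a7, Slc18a3 and Slc38a3, among them the glial glutamate carrier (Slc1a3), the main glucose carrier of the brain and retina (Slc2a1) and a vesicular glutamate carrier (Slc17a7).

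Most marked carriers had the mark at the start of the gene. The annotation placed 62.1% of the 272 peaks at a promoter and 21.7% between genes, against 49.4% and 32.1% of all peaks. Their median distance from a start site was 730 bp (3150 bp over all peaks), and their median width was 3211 bp (2791 bp over all peaks). By RefSeq gene bodies, 188 peaks overlapped the carrier they were assigned to. The other 84 did not, 6 of them lying over another coding gene and 78 over none, so for these the link to the carrier rests on the annotation's nearest gene.

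Reads in peaks per animal ran from 1688368 to 2864080. The peaks of solute carriers took 1.41% to 1.44% of them in controls and 1.46% to 1.48% in cKO animals. As shares of all reads in peaks, these values also depend on the other peaks. They do not show a gain of the mark at carriers and were not tested. The 6 pairs of technical duplicates agreed within counting error, with chi-square values of 0.88 to 0.997 per degree of freedom. The Jarid2 gene itself had 4.45 ± 0.46 CPM in the 5 controls and 4.38 ± 1.74 in the 5 cKO animals (SD), and a promoter mark does not check the deletion. H3K27me3 peaks were assigned to 10 of 15 retinal regulators and 3 of 9 pigment epithelium genes, but the tissue cannot be checked further with a mark of silent genes. Levels below are CPM, the counts scaled to the same total per animal with TMM factors, summed over the peaks of a gene, and log2 fold changes are cKO against control with batch as a term in the model.

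Few solute carriers changed. The 8 genes with too few reads to test, among them Slc25a13, Slc25a38, Slc2a8, Slc35e2, Slc46a1, Slc8b1 and Slc9a5, had 2.59 to 4.05 CPM in controls. Of the 172 genes tested, 9 had lower and 2 higher H3K27me3 in cKO retinas (edgeR quasi-likelihood test, Benjamini-Hochberg adjusted p under 0.05 over all 11324 genes tested). That was 6.40% of the carriers, where 9.78% of all genes tested were called. The share lower was 5.23% against 8.29% of all genes, and the share higher 1.16% against 1.48%. The lower genes were the melanosome exchanger Slc24a5, the urea carrier Slc14a2, the cystine-glutamate exchanger Slc7a11, the mitochondrial carrier Slc25a21, the amino acid carrier Slc38a11, the sodium-calcium exchanger Slc8a1, the vesicular monoamine carrier Slc18a2, the monocarboxylate carrier Slc16a7 and the sodium-proton exchanger Slc9a2. The higher genes were the mitochondrial NAD carrier Slc25a51 and the acetyl-CoA carrier Slc33a1. The decreases ran from 1.14-fold (Slc9a2) to 1.80-fold (Slc16a7), and none reached 2-fold. In the other 161 genes the log2 fold changes ran up to 0.76, at Slc4a5 (adjusted p = 0.11), and the median over all 172 was 0.03, against 0.02 over all genes. In whole retinas, a mark lost from a share of the cells and a mark thinned in all cells cannot be told apart.

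The animals can be set beside the calls. At all 11 genes the 5 cKO animals lay on the same side of the control mean of their batch, and the groups did not overlap within either batch. Within batches 80.8% of all 1107 called genes and 12.3% of all genes tested did not overlap either. Since the calls come from the same animals, this is a description of them and no further support. Uncalled carriers without overlap within batches were Slc27a5, Slc52a2, Slc6a19, Slc6a3 and Slc9a9. Across all 10 animals without regard to batch, 5 of the 11 genes did not overlap (Slc24a5, Slc25a21, Slc38a11, Slc7a11 and Slc9a2), where this was so for 22.7% of all called genes and 3.81% of all genes tested. Scaled by total count alone, without TMM, the median log2 fold change of all genes rose to 0.07. With that scaling 8 carriers were lower and 4 higher, where 1227 of all genes were called. That scaling moved the lower share of the calls from 81.8% to 66.7%. In batch 1 alone edgeR called 0 carriers and 0 of all genes. In batch 2 alone 8 carriers were lower and 3 higher, where 841 of all genes were called.

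Control replicate 1, the control that carried Cre, lay toward the cKO animals at most called carriers, as it did over all called genes. Beside control replicate 2, the other control of its litter, its level lay on the side of the cKO animals at 10 of the 11 genes, Slc25a51 being the exception. Over all called genes this was so at 91.4% of 1107. It was the control nearest to the cKO animals at 7 of the 11 carriers and at 77.6% of all called genes. These 2 controls differed in sex as well as in Cre, and the part of either was not tested. Without control replicate 1 all 11 calls were kept, and 12 carriers were lower and 4 higher (1246 of all genes called). Added were Slc10a1, Slc1a2 and Slc9a9 as lower and Slc35g2 and Slc46a1 as higher.

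**Figure D1:**
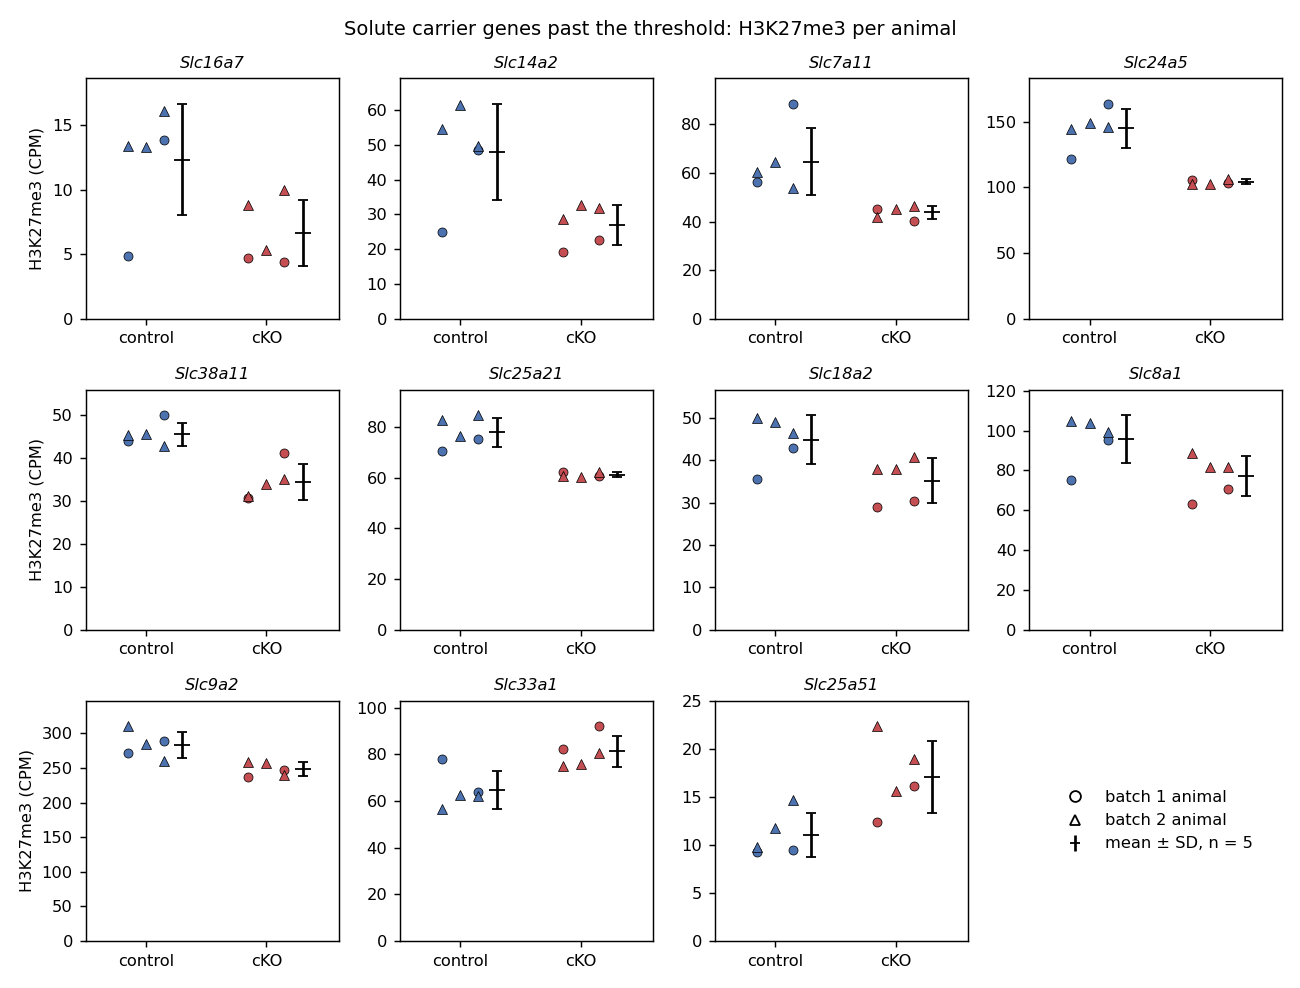
H3K27me3 per animal at the 11 solute carrier genes past the threshold, in CPM on a linear axis from 0, with circles for batch 1, triangles for batch 2 and bars for the mean ± SD of 5 animals. At each gene the 2 genotypes separated within a batch. The SD of the cKO animals was 1.87 CPM at Slc24a5 and 0.93 CPM at Slc25a21, small spreads that were not tested.

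Among carriers of neurotransmitters 1 of 20 tested changed, and the class held the 3 genes with most reads, which also had wide peaks. The class counts here and below stand beside a share of 9.78% called over all genes tested. Slc18a2, which loads dopamine and other monoamines into vesicles, had 35.6, 42.9, 50.0, 49 and 46.4 CPM in control replicates 1 to 5 and 29.03, 30.3, 37.97, 37.9 and 40.8 CPM in cKO replicates 1 to 5. Batch 1 was lower than batch 2 in both genotypes, and within each batch every cKO animal lay below every control. The difference was -0.35 ± 0.09 on the log2 scale (SE, adjusted p = 0.0128 by edgeR), with -0.38 in batch 1 and -0.33 in batch 2. Its single peak (chromosome 19, 59259670 to 59265140) covers the start site. The call was lost with DESeq2 (adjusted p = 0.114), in batch 2 alone (0.0753), with the second duplicate only (0.161) and without a batch term (0.132).

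No difference was called at the transmitter carriers with most reads, Slc32a1, Slc17a6 and Slc6a5. Slc32a1, the vesicular carrier of GABA and glycine, had 869.6, 794, 836, 767 and 727 CPM in controls and 777, 797, 829.2, 789 and 761 CPM in cKO, spread over 1 peak of 43821 bp that runs across the whole gene. All cKO values lay inside the range of the controls, and the 95% interval of the log2 fold change was -0.14 to 0.11. Slc17a6, the vesicular glutamate carrier of ganglion cells, had 822, 820.5, 753, 737 and 674 CPM in controls and 703, 750.4, 741, 744 and 683 CPM in cKO (interval -0.19 to 0.06). It had the densest mark of all members, 34 CPM per kb of peak in controls, against a median of 6.56 over the 180 genes. Slc6a5, which takes up glycine at the synapse, had 766, 788, 732, 675 and 662 CPM in controls and 709, 742, 665, 661 and 624 CPM in cKO. Every cKO animal was under the mean of its batch's controls, but the size was small (log2 fold change -0.09 ± 0.05, adjusted p = 0.337 by edgeR). Its reads came mainly from a peak of 30591 bp over the start site, and 6 smaller peaks lay up to 31.4 kb upstream of the gene.

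The plasma membrane carriers of monoamines were marked and not called. Slc6a3, the dopamine carrier, had 414, 401, 363, 376 and 379 CPM in controls and 462, 419, 389.6, 379.5 and 381 CPM in cKO. Each cKO animal lay above every control of its batch, so exchanging genotypes within each batch in an exact permutation test (two-sided) gave p = 0.0167, the smallest its 120 arrangements allow and the value of all 16 tested carriers without overlap within batches, but the difference was 1.05-fold and edgeR gave an adjusted p of 0.472. The serotonin carrier Slc6a4 had 229 ± 24.1 CPM in controls and 227 ± 10.03 in cKO, and the noradrenaline carrier Slc6a2 had 161 ± 11.8 and 169 ± 15.8 (SD, n = 5 each). The choline carrier Slc5a7, counted by its family among the carriers of sugars and organic solutes, had 17.4 ± 2.92 and 14.6 ± 1.21 CPM (log2 fold change -0.25 ± 0.14, adjusted p = 0.333 by edgeR). Slc17a8, the vesicular glutamate carrier of a class of amacrine cells, had 18.8 ± 3.45 and 16.4 ± 1.90 CPM. In the Slc6 family 0 of 14 genes were called and 0 had an unadjusted p under 0.05, against 9.78% and 23.02% of all genes tested. The log2 fold changes of the family ran from -0.12 to 0.29.

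**Figure D2:**
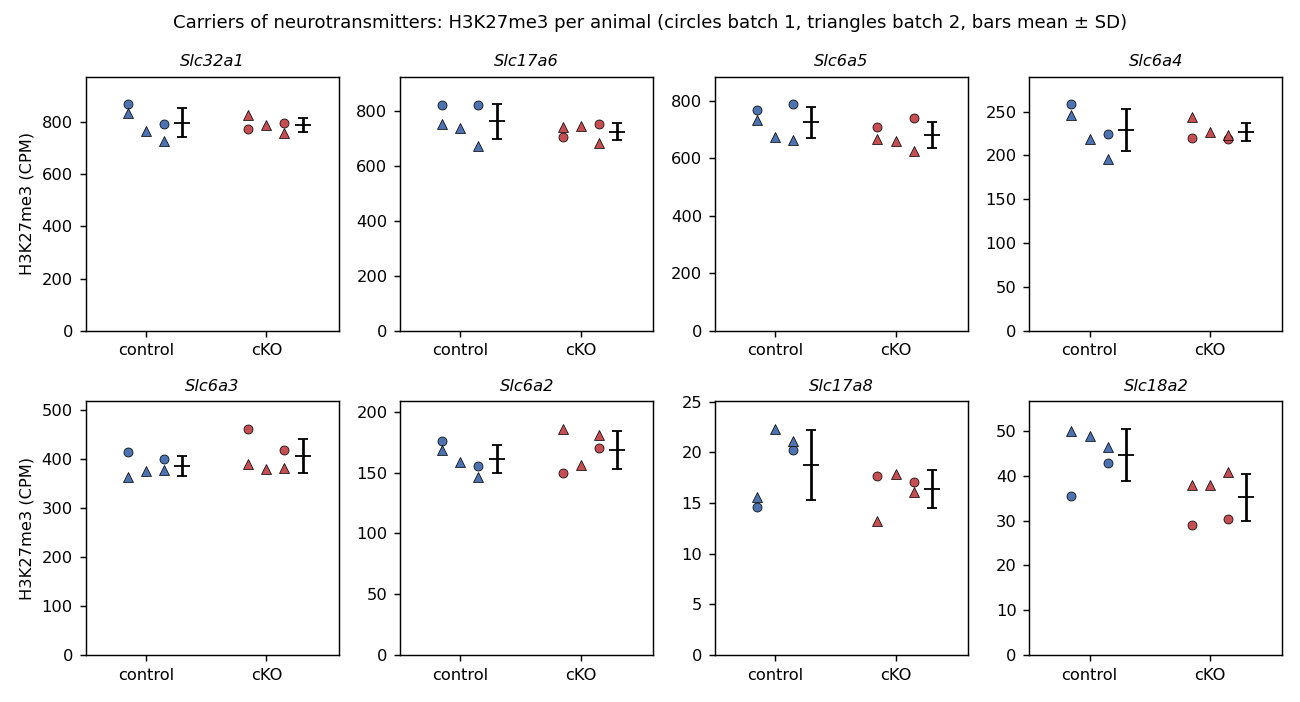
H3K27me3 per animal at 8 carriers of neurotransmitters, in CPM on linear axes from 0, with circles for batch 1, triangles for batch 2 and bars for the mean ± SD of 5 animals. The cKO animals fell below the controls of their batch at Slc18a2, while the values of Slc32a1, at 727 to 869.6 CPM in controls and 761 to 829.2 CPM in cKO, overlapped.

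Carriers of amino acids and peptides had 2 lower genes of 21 tested. Slc7a11, which exchanges cystine for glutamate and feeds glutathione synthesis, had 56.2, 88.4, 60.5, 64.7 and 53.8 CPM in controls and 45.1, 40.1, 42.0, 45.04 and 46.5 CPM in cKO. The highest cKO animal lay below the lowest control, and control replicate 2 stood well above the other controls. The difference was -0.55 ± 0.12 on the log2 scale (SE, adjusted p = 0.00344 by edgeR), with -0.73 in batch 1 and -0.44 in batch 2. Its peak (chromosome 3, 50382070 to 50389870) is exonic by the annotation and lies 11271 bp from the nearest listed start site. Slc38a11, a member of the sodium-driven neutral amino acid carriers, had 43.9, 49.9, 45.3, 45.5 and 42.7 CPM in controls and 30.6, 41.1, 31.2, 33.9 and 35.1 CPM in cKO, with no overlap between the groups. The difference was -0.40 ± 0.09 on the log2 scale (adjusted p = 0.00804 by edgeR) at a peak over its start site (chromosome 2, 65361300 to 65366290), the first sequence above. The call was lost with the second duplicate only (adjusted p = 0.0639).

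Both marked glutamate uptake carriers had values below zero without passing. Slc1a1, the neuronal glutamate and cysteine carrier, had 63.9 ± 7.01 CPM in the 5 controls and 52.8 ± 5.00 in the 5 cKO animals (SD), and its log2 fold change was -0.27 ± 0.09 (SE, adjusted p = 0.0657 by edgeR). Slc1a2, the glutamate carrier of glia and of some photoreceptors and bipolar cells, had 124 ± 15.2 and 108 ± 9.76 CPM (log2 fold change -0.20 ± 0.07, adjusted p = 0.0883). In both, every cKO animal was under the mean of its batch's controls, although the groups overlapped within batches. Slc1a1 passed without control replicate 3 (adjusted p = 0.0283), with the first duplicate only (0.023) and with no filter on low counts (0.0466), and Slc1a2 without control replicate 1 (0.0454). Slc15a5, of the oligopeptide carriers, had 494 ± 25.9 CPM in controls and 449 ± 35.4 in cKO, a difference of -0.14 ± 0.06 on the log2 scale (adjusted p = 0.171 by edgeR). The value was -0.27 in batch 1 and -0.05 in batch 2, and the test of that difference gave an unadjusted p of 0.0393, which did not pass over all genes.

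Cation and proton carriers had 3 lower genes of 14 tested and 0 higher. Slc24a5, the potassium-dependent exchanger of melanosomes that is needed for pigment, had the smallest adjusted p of all solute carriers. It held 122, 163.5, 145, 149 and 146 CPM in controls and 106, 104, 102, 103 and 107 CPM in cKO. All cKO animals lay below the lowest control. The difference was -0.47 ± 0.07 on the log2 scale (SE, adjusted p = 1.7e-04 by edgeR), with -0.42 in batch 1 and -0.51 in batch 2. The peak (chromosome 2, 124945710 to 124958450) is intergenic and lies 110 kb from the body of Slc24a5 (125068127 to 125088677), with no coding gene nearer, so the mark was not over the gene itself. By pattern over the 10 animals, after centring on each batch, the genes most like it were 3110099E03Rik (Pearson r = 0.997), Gm25727 (0.996) and Gm47486 (0.996). These likenesses include the difference between genotypes and share their libraries.

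Pigment genes of the set and of the marker list can be set beside it. Slc45a2, a melanosome carrier, had 4.39 ± 0.67 CPM in controls and 5.91 ± 0.92 in cKO, and its log2 fold change was 0.45 ± 0.22 (adjusted p = 0.327 by edgeR). Of 9 pigment epithelium markers 3 held a peak and 2 were tested. Mitf had 175 CPM in controls and 154 in cKO and was lower (log2 fold change -0.19, adjusted p = 0.0282), and Dct had 752 and 689 CPM (-0.13, adjusted p = 0.159). Summed over the list, the level was 898 to 978 CPM in controls and 800 to 872 CPM in cKO. Most of that sum came from Dct, which was not called, so it does not describe the list as a class. Tyr, Tyrp1, Rpe65, Best1, Rlbp1 and Ttr had no peak. Lower values were not particular to pigment genes. Of 15 retinal regulators 9 were tested and 2 were lower by edgeR. Otx2 had 731 CPM in controls and 580 in cKO (adjusted p = 0.00222), and Lhx2 had 126 and 104 (0.0203). Summed over that list, the level was 3580 to 4558 CPM in controls and 3694 to 4052 CPM in cKO. The part of any of these genes in the Slc24a5 result was not tested.

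Slc8a1, the main sodium-calcium exchanger of excitable cells, had 75.2, 95.3, 105, 104 and 99.2 CPM in controls and 63.2, 70.9, 88.7, 81.6 and 81.6 CPM in cKO. The groups separated within each batch but overlapped across batches, since batch 1 was lower in both. The difference was -0.30 ± 0.07 on the log2 scale (SE, adjusted p = 0.0107 by edgeR) at a promoter peak (chromosome 17, 81670500 to 81674860), and it was lost without a batch term (adjusted p = 0.136) and with the second duplicate only (0.155). Slc9a2, an epithelial sodium-proton exchanger, had 272, 289.7, 310.1, 285 and 260.0 CPM in controls and 237, 246, 259, 258 and 240.0 CPM in cKO. The highest cKO animal lay just under the lowest control. Its change was the smallest of the called genes (log2 fold change -0.19 ± 0.06, adjusted p = 0.0433 by edgeR). It passed in 2 of 10 fits that left out an animal, those without control replicates 1 and 5, with adjusted p up to 0.131 (without control replicate 3). It also did not pass with DESeq2 (0.0683), the total count (0.0659) or batch 2 alone (0.185), nor as a single peak (0.0922).

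The exchangers of photoreceptors were marked and not called. Slc24a1, the exchanger of rod outer segments, had 169 ± 16.8 CPM in controls and 174 ± 11.1 in cKO, and Slc24a2, its counterpart in cones, had 40.0 ± 2.51 and 35.0 ± 4.54 (SD, n = 5 each). Their log2 fold changes were 0.04 ± 0.07 and -0.19 ± 0.09 (SE, edgeR adjusted p = 0.798 and 0.262). Slc24a4, an exchanger of sensory neurons and enamel, had 298 ± 22.8 and 283 ± 16.4 CPM, and Slc9a3, a sodium-proton exchanger of gut and kidney, had 307 ± 31.1 and 314 ± 10.6 CPM. Both differed by less than the spread between animals.

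Mitochondrial and other intracellular carriers were the class with calls in both directions, 1 lower and 2 higher of 24 tested. Slc25a21, which carries oxodicarboxylates into mitochondria, had 70.3, 75.1, 82.6, 76.4 and 84.5 CPM in controls and 62.2, 60.6, 60.7, 60.2 and 62.1 CPM in cKO. Each cKO animal lay below the lowest control. The difference was -0.35 ± 0.07 on the log2 scale (SE, adjusted p = 0.00366 by edgeR). Of its 4 peaks, 2 were tested. The peak over its start site (chromosome 12, 57194650 to 57198200) fell from 30.99 ± 2.81 to 22.01 ± 2.51 CPM (log2 fold change -0.50 ± 0.11, adjusted p = 0.00453), and that at another promoter (56982770 to 56988430) had -0.26 ± 0.10 (adjusted p = 0.128). The start-site peak did not pass with DESeq2 (adjusted p = 0.0518) or with the first duplicate only (0.06).

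The higher genes both had their peak beside the gene and not over it. Slc25a51, the mitochondrial NAD carrier, had 9.28, 9.47, 9.78, 11.8 and 14.7 CPM in controls and 12.4, 16.1, 22.4, 15.6 and 18.97 CPM in cKO. The groups separated within each batch, and the lowest cKO animal, from batch 1, overlapped the controls of batch 2. The rise was 1.58-fold (log2 fold change 0.66 ± 0.15, adjusted p = 0.00833 by edgeR), at a peak 1.7 kb from the gene (chromosome 4, 45410620 to 45413370). It was lost with DESeq2 (adjusted p = 0.0666), with the first duplicate only (0.0739) and without a batch term (0.0741). Slc33a1, which carries acetyl-CoA into the endoplasmic reticulum, had 78.1, 63.7, 56.5, 62.3 and 62.0 CPM in controls and 82.4, 91.9, 75.1, 75.8 and 80.6 CPM in cKO. The rise was 1.26-fold (log2 fold change 0.33 ± 0.08, adjusted p = 0.00833), and control replicate 1 was the control nearest to the cKO animals. Its peak (chromosome 3, 63965580 to 63974180) lies 0.847 kb from Slc33a1 and over Gmps, the gene of GMP synthetase, so these reads may belong to either gene. Slc33a1 did not pass without a batch term (adjusted p = 0.0825).

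The class as a whole had more positive than negative values. Of its 24 tested genes 18 had a log2 fold change above 0 (75.0%), where 53.2% of all genes tested did. An unadjusted p under 0.05 was found at 11 (45.8%), against 23.02% of all genes, and the class median was 0.13, against 0.02. In the Slc25 family 10 of 12 tested genes were positive, with a median of 0.22. Many of these values come from peaks that do not overlap the gene. No peak overlapped its gene at Slc25a1, Slc25a4, Slc25a10, Slc25a26, Slc25a30, Slc25a39, Slc25a46 and Slc25a51, nor at Slc33a1. Peaks overlapped the gene at Slc25a21, Slc25a41, Slc25a42 and Slc25a48. The median level in controls was 34.1 CPM in the class and 20.7 CPM in the Slc25 family. Of all tested genes 56.4% were positive at 20.7 to 68.2 CPM and 61.0% at 3.25 to 20.5 CPM. These shares have no test. Slc25a42, a mitochondrial coenzyme A carrier, was at 0.45 on the log2 scale (adjusted p = 0.122), and Slc25a1, the citrate carrier, at 0.22 (0.147). Slc35d3, of the nucleotide-sugar carrier family, had many reads (289 ± 24.6 CPM in controls and 283 ± 17.2 in cKO) and a log2 fold change of -0.03 ± 0.06 (edgeR adjusted p = 0.853).

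**Figure D3:**
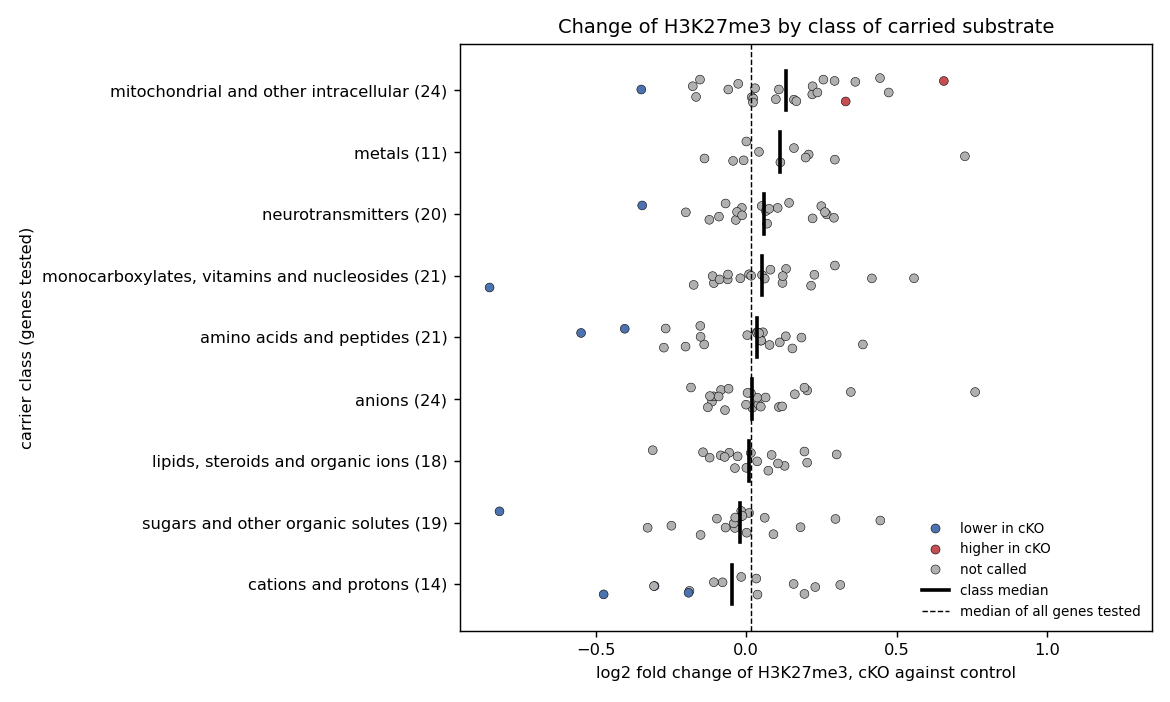
Log2 fold change of H3K27me3 (cKO against control) of the 172 tested solute carrier genes by class of carried substrate, 1 point per gene, with the class median as a bar and the median of all genes tested as a dashed line. The class medians run from -0.05 (cations and protons) to 0.13 (mitochondrial and other intracellular), and in each class most genes lie around 0.

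Carriers of monocarboxylates, vitamins and nucleosides had 1 lower gene of 21. Slc16a7, a monocarboxylate carrier that takes up lactate and pyruvate into neurons, had the largest fold of the called genes. It held 4.88, 13.9, 13.4, 13.3 and 16.1 CPM in controls and 4.67, 4.40, 8.79, 5.35 and 9.96 CPM in cKO. Control replicate 1 lay far below the other controls and within the range of the cKO animals. The difference was -0.85 ± 0.22 on the log2 scale (SE, adjusted p = 0.018 by edgeR), and it was -0.99 without control replicate 1 (adjusted p = 0.00171). The call was lost without cKO replicate 4 (adjusted p = 0.0711), with either technical duplicate alone (0.0555 and 0.0917) and without a batch term (0.118). Its peak (chromosome 10, 125304100 to 125305840) lies within the gene, 2976 bp from a start site. Slc16a1, the widespread lactate carrier, had 11.2 ± 1.72 CPM in controls and 11.3 ± 1.28 in cKO, and the other 8 marked genes of the family had log2 fold changes from -0.17 to 0.23.

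Carriers of sugars and other organic solutes had 1 lower gene of 19, the urea carrier Slc14a2 on chromosome 18. It held 24.9, 48.6, 54.7, 61.5 and 49.6 CPM in controls and 19.2, 22.5, 28.8, 32.6 and 31.8 CPM in cKO. Control replicate 1 lay within the cKO range, and the other 4 controls lay above all cKO animals. The difference was -0.82 ± 0.13 on the log2 scale (SE, adjusted p = 3.8e-04 by edgeR), with -0.76 in batch 1 and -0.85 in batch 2. The reads came from 4 intronic peaks that lie 14411 to 23121 bp from a start site, and all 4 had negative values. Of these, the peak at 78571000 to 78573730 fell from 28.1 ± 7.77 to 15.3 ± 3.55 CPM (adjusted p = 2.7e-04), and that at 78575020 to 78576090 fell from 7.11 ± 2.47 to 3.43 ± 1.379 CPM (adjusted p = 0.00673).

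The 3 classes left had 0 calls in 53 tested genes by edgeR, with 9 at an unadjusted p under 0.05, and 0 by DESeq2. Over all genes tested edgeR called 9.78%, and 23.02% had an unadjusted p under 0.05. Anion carriers had a median log2 fold change of 0.02 over 24 genes. They include Slc12a5, the chloride extruder of mature neurons, with 219 ± 24.2 CPM in the 5 controls and 225 ± 14.5 in the 5 cKO animals (SD), and Slc26a4, an iodide and chloride exchanger of the inner ear and thyroid, with 426 ± 39.1 and 426 ± 18.2 CPM. The interval of the log2 fold change was -0.10 to 0.19 for Slc12a5 and -0.11 to 0.12 for Slc26a4. Slc12a2, the chloride importer of immature neurons, had 4.69 ± 1.41 and 4.68 ± 1.21 CPM, near the lowest level that could be tested. Slc4a5, a bicarbonate cotransporter, had 3.25 ± 0.34 and 5.48 ± 2.09 CPM, a difference of 0.76 ± 0.29 on the log2 scale (SE, adjusted p = 0.11 by edgeR), which passed only without cKO replicate 4 (0.0258). Metal carriers had a median of 0.11 over 11 genes, with the vesicular zinc carrier Slc30a3 at 370.4 ± 38.5 CPM in controls and 381 ± 18.6 in cKO. Lipid, steroid and organic ion carriers had a median of 0.01 over 18 genes.

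Taken peak by peak, 9 peaks of solute carriers were lower and 4 higher of 237 tested (edgeR, adjusted p under 0.05 over 16307 peaks). That was 5.49%, where 8.84% of all peaks tested were called, 7.38% as lower and 1.46% as higher. The called peaks belonged to 10 of the 11 called genes and, in addition, to Slc25a30 and Slc35f3. The Slc25a30 peak (chromosome 14, 75800470 to 75805380) lies 13.4 kb from this mitochondrial carrier gene and rose from 9.49 ± 1.32 to 14.7 ± 1.14 CPM (log2 fold change 0.62 ± 0.15, adjusted p = 0.0112). The peak beside the gene's start site had a log2 fold change of 0.03 ± 0.11. The Slc35f3 peak is intronic (chromosome 8, 126294100 to 126294930) and rose from 2.503 ± 0.97 to 5.35 ± 1.15 CPM (log2 fold change 1.10 ± 0.29, adjusted p = 0.0167), the only called peak above 2-fold besides the Slc14a2 peak that fell by 1.02 on the log2 scale. The 2 promoter peaks of Slc35f3, with 102 and 55.0 CPM in controls, had log2 fold changes of 0.07 and 0.04. The call at Slc35f3 was lost without control replicate 4 (adjusted p = 0.0735) and that at Slc25a30 in batch 2 alone (0.16). Slc25a30 did not pass with DESeq2 (0.155), which gave no adjusted p for the Slc35f3 peak.

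**Figure D4:**
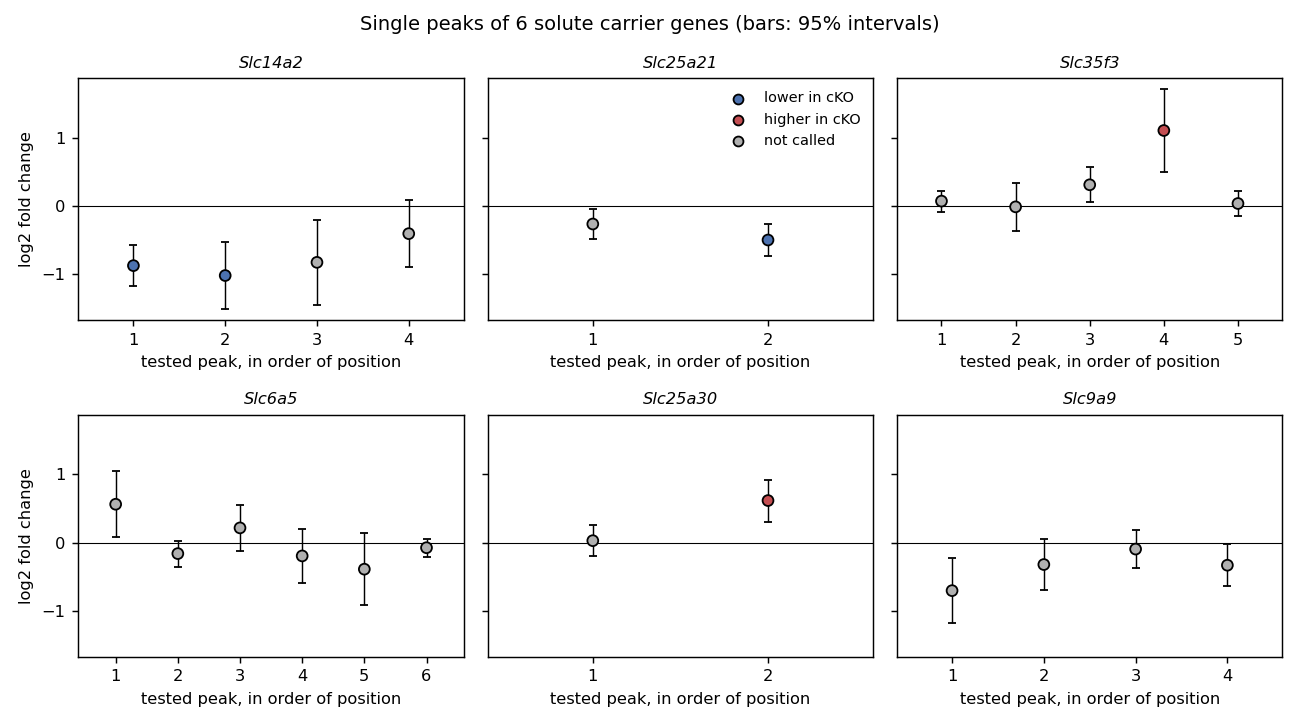
Log2 fold change of the tested single peaks of 6 solute carrier genes, in order of position within each gene, with 95% intervals as bars. All 4 Slc14a2 peaks lie below 0, while 1 of the 5 tested Slc35f3 peaks was called higher (1.10) and its promoter peaks lie near 0.

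The share of calls varied with the level of the mark. The 10 genes with most reads in controls, from Slc32a1 to Slc35d3, had 0 calls. Among the 58 tested carriers at the highest levels in controls (69.6 to 798.5 CPM), 4 were lower and 0 higher, 6.90%, where 17.7% of the 3184 tested genes of all kinds in that range of levels were called. At middle levels (20.7 to 68.2 CPM) 8.77% of the carriers and 10.9% of all genes were called, and at the lowest levels (3.25 to 20.5 CPM) 3.51% and 3.25%. The shares of positive values rose from 44.8% to 61.4% and 68.4% from the highest to the lowest levels, and over all genes in the same ranges they were 41%, 56.4% and 61.0%. These shares are descriptions with no test.

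**Figure D5:**
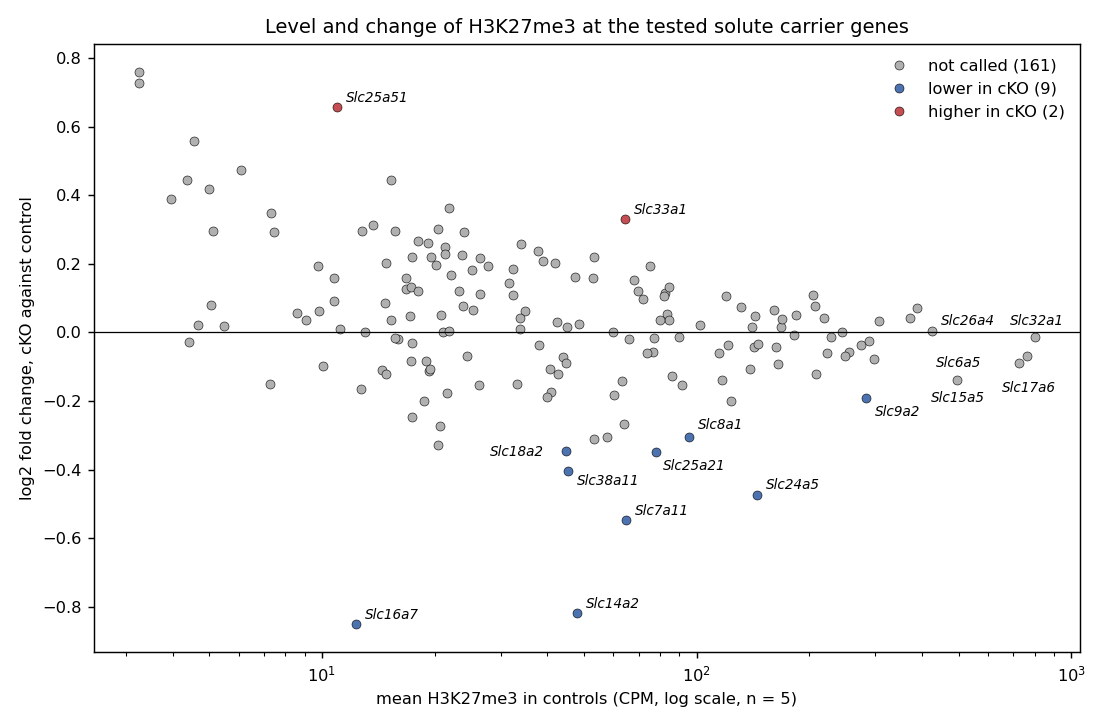
Mean H3K27me3 in controls (CPM, log axis) against log2 fold change for the 172 tested solute carrier genes, with called genes in colour. The genes with the highest levels, Slc32a1, Slc17a6 and Slc6a5, lie close to 0, and the called decreases lie between 12.3 CPM (Slc16a7) and 283 CPM (Slc9a2).

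The batches differ in litter and in sex, and the difference in genotype effect between them was tested. It was called for 0 of 172 solute carrier genes (edgeR test of the interaction, lowest adjusted p = 0.612, at Slc35g2) and for 2 of all 11324 genes. Of the carriers 5 (2.91%) had an unadjusted p under 0.05, against 4.46% of all genes. With 2 animals per genotype in batch 1 and so few calls over all genes, the 0 does not show that the effects were equal. No other tool was run for this test. Among the 10 called genes that could be fitted in both batches, the log2 fold changes had the same sign in both. Since these genes were called from the same animals, this describes the calls and is no further support.

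Of other transport genes, on 4 lists set for comparison, 5 of 45 tested were called (11.1%), where 9.78% of all genes were. Of the Slco organic anion carriers 4 were tested and 1 was lower (Slco4c1, log2 fold change -0.32, adjusted p = 0.0474). Of 13 tested ion-pumping ATPases, the sodium pump subunit gene Atp1b1 was lower (-0.26, adjusted p = 0.0455) and the calcium pump gene Atp2b2 higher (0.29, adjusted p = 0.00438). Of 14 tested ABC transporters, Abca12 (-0.46, adjusted p = 8.5e-04) and Abcc9 (-0.43, adjusted p = 0.0438) were lower. Of 14 tested genes for synthesis and handling of transmitters, which work beside the carriers of the Slc6, Slc17, Slc18 and Slc32 families, 0 were called by edgeR, with 2 at an unadjusted p under 0.05. Over all genes tested 23.02% had such an unadjusted p.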

How the data were processed

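The build was mm10, and the tools were MACS2, SAMtools, DESeq2 1.38.1 and Novoalign 4.02.02, per the submitters' processing notes, which give no roles. The authors deposited counts per peak for 16 H3K27me3 libraries. A contrast that is not named, with a mean signal, log2 fold changes, a test score and p-values per peak, was deposited too, per the file headers, and is used only in the closing section. The sources used here give no settings of peak calling or counting. The 6 IgG libraries were left out.

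Counts were summed per animal and, for genes, over all peaks of a gene, and filtered with filterByExpr, leaving 11324 genes and 16307 peaks. edgeR 4.0.16 (TMM factors, batch as an additive term, R 4.3.3) was run over the whole table. SE is the size of the log2 fold change divided by the square root of F. Log2 CPM for likeness and permutations used a prior count of 2. DESeq2 1.42.0, other scalings, no filter, no batch term, a replicate block, each batch or duplicate alone, start-site peaks alone, other thresholds and leaving out each animal were tried. The steps were tested on simulated data.

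The members, classes and lists were chosen with earlier results of these data known. Named were all called genes and peaks, the 10 genes with most reads in controls, 30 listed retinal or neuronal transporters, and the 3 genes most like the best-called member. Further members were named after their values were seen, to describe families. The values of 1 listed transporter are not reported here. RefSeq promoter sequences matched 131 of 180 members.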

Additional observations from a re-analysis of the deposited data

Results flagged for a closer look

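Of 70 groups of 5 animals checked at the named genes, 1 held an animal far from the rest. At the monocarboxylate carrier Slc16a7, control replicate 1 had 4.88 CPM, while the nearest of the other 4 controls had 13.3 CPM, a gap of 0.754 of the whole range of the controls. Chance flags about 1 in 20 such groups. This animal is the control that carried Cre, and its level lay within the range of the cKO animals (4.40 to 9.96 CPM).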

How the results depend on the processing

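With 9 solute carrier genes lower and 2 higher, and 9 peaks lower and 4 higher, the counts depended on several settings. Without a batch term there were 5 and 0 genes and 4 and 1 peaks (all genes 271, all peaks 359). In batch 1 alone all of these counts were 0. With DESeq2 the genes higher numbered 1 (all genes 742), and the peaks numbered 3 lower and 1 higher (all peaks 863). The first duplicate alone gave 1 gene and 1 peak higher (777 of all genes and 987 of all peaks called). The second gave 4 genes lower (887 of all genes called). The total count gave 4 genes higher (1227 of all genes called). Peaks near a start site alone gave 5 genes lower (446 of all genes), and an adjusted p under 0.01 gave 5 (624 of all genes). With start-site peaks 7 of the 11 called genes had a value and all 7 were kept. The other 4, Slc14a2, Slc16a7, Slc24a5 and Slc7a11, had no such peak. Leaving out 1 animal at a time gave 7 to 12 genes lower and 2 to 4 higher, 9 to 12 peaks lower and 2 to 6 higher, 838 to 1246 of all genes and 1090 to 1617 of all peaks. The 2 peaks higher came without control replicate 4, and the 4 genes higher without control replicate 1 or cKO replicate 4. Of 967 values of named genes and peaks under these settings, 886 kept their side of the threshold, 76 lost it, 5 gained it, and 0 called values reversed. At 45 the sign of an uncalled value changed.

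Replicate numbers did not pair the animals (correlation of same-numbered animals over genes -0.461 for numbers 1 and 2, which are 1 comparison, and 0.029 to 0.114 for numbers 3 to 5). With the replicate block 10 carriers were lower and 2 higher, all 11 calls were kept and Slc10a1 was added. Batch 1 alone, with only 2 animals per genotype, gave 0 calls over all genes. The part of the few animals, and of Cre and sex in its 2 controls, was not tested. Another limit is that 8 carriers, at 2.59 to 4.05 CPM in controls, had too few reads to test.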

Other observations

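In the authors' deposited table the log2 fold change and the test statistic had opposite signs at all 272 peaks of solute carriers and at all 19034 peaks. The sign of the deposited log2 fold change was opposite to that of the values given here at 101 of 237 tested carrier peaks (42.6%) and at 5 of the 13 called ones (38.5%). Over all peaks this was so at 43.5% of 16307 tested and 15.7% of 1442 called. The header names no contrast, so no value of that table was used as a result.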
